A study of Mus musculus with 20 samples.

Results

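The collagen genes other than those of type IV were followed through the response of mouse flank tissue to Ad-VEGF-A164. They were found by symbol, as every gene whose name has the form Col, a number, the letter a and a number, with the type IV chains left out, and each was represented by its probe set of highest mean signal. There were 36 such genes among 18194 genes on the array, beside 6 type IV chains, and 29 of the 36 reached the minimum mean signal of 300 that a gene needed to be tested. By class they were 11 fibrillar chains, all tested, 9 fibril-associated chains (FACIT), of which 6 were tested, 9 chains of networks and filaments, of which 6 were tested, 4 membrane chains, all tested, and 3 multiplexin or other chains, of which 2 were tested. The 7 genes not tested were Col10a1, Col19a1, Col26a1, Col6a4, Col6a5, Col9a2 and Col9a3.

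The study hybridised flank RNA to 20 Affymetrix Mouse Genome 430 2.0 arrays, whose values are MAS5 signals, scaled intensities per probe set. Ad-VEGF-A164 is an adenoviral vector for an isoform of vascular endothelial growth factor A, a growth factor of blood vessels. Tissue was harvested at day 0, which served as control (5 arrays, A to E), at day 5 (4 arrays, B to E), at day 20 (5 arrays, A to E) and at day 60 (5 arrays, A to E). The array titled day 5 A carries a source name that places it among the day 0 controls, and it entered no comparison. The only controls are day 0 tissue, and no group with an empty vector was analysed here, so effects of the growth factor, of the vector and of time after injection cannot be told apart. Strain, sex, age and dose are not given in the labels. Nor do these say that each array is a separate animal, so the p-values measure only how far these arrays differ, perhaps for technical reasons, and the number of arrays limits the precision. The tissue is a bulk mixture, in which more cells of a type and more RNA per cell cannot be told apart.

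Collagens are matrix proteins built from 3 chains wound around each other. Fibrillar chains assemble into the fibrils that give skin and tendon their strength, FACIT chains coat the fibrils, type VI forms beaded filaments around cells, type VIII forms sheets in vessel walls, membrane chains stay anchored in the cell surface, and types XV and XVIII sit in basement membrane zones. New collagen in a healing or growing tissue is laid down mainly by fibroblasts, and a number of chains are also made by endothelial cells, pericytes and smooth muscle.

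At least 1 chain of each of the 5 classes rose by day 5 and was high on day 20. The fibrillar chains and those of types VI and VIII provided most of the genes that passed. The FACIT and membrane classes had only 1 gene each called higher on day 5, of 6 and 4 tested, with class medians of -0.25 and -0.36 (log2). On day 60 Col9a1 was the 1 call among the 29 tested genes. Calls rest on a limma fit of log2(signal + 100), with an adjusted p (Benjamini-Hochberg) below 0.05 over all 13595 genes tested. On day 5, 14 of the 29 were higher and 2 lower, where 16.8% of all genes tested were called higher and 17.5% lower. Their median log2 change was 0.60, against -0.07 for all genes tested. On day 20, 19 were higher and 2 lower, where 15.6% of all genes were called higher and 14.5% lower, and the median was 1.24 against -0.06. On day 60, 0 were higher and 1 was lower, where 0.368% of all genes were called higher and 0.765% lower, and the median was 0.21 against 0.01. Fold changes are on the scale of log2(signal + 100), where low signals give too small a change. On day 5, 13 genes had every array above every control array, as had 14.5% of all genes tested. On day 20 there were 17 such genes, against 12%. Col2a1 is counted among the genes that rose by day 20 and were lower on day 60, but it reached the minimum of 300 only through its day 20 arrays (mean 185 over the other arrays), so it had to be high there and its counts support nothing.

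All 14 genes that rose by day 5 were also higher on day 20 than in control, and 5 more, Col2a1, Col8a2, Col11a1, Col14a1 and Col27a1, passed the test against control on day 20 and not on day 5. Of these 19 genes, 18 were lower on day 60 than on day 20, the exception being Col14a1, and 17 of the 19 estimates on day 60 were still above 0. These genes were picked as high in the day 20 arrays, and the fall is measured from the same arrays. The choice itself thus favours a fall, and the count of 18 is a description only. Of all 29 genes, 18 were called lower and 2 higher on day 60 than on day 20, where 11.2% of all genes were called lower and 11% higher. Against day 5, day 60 had 13 called lower and 2 higher, with 12.2% of all genes called in each direction. The call of Col1a2 on day 60 against day 5 (log2 -0.56, limma adjusted p = 0.0375) was lost without day 5 B, C or E or day 60 A, C or D, with adjusted p of 0.0519 to 0.132. The comparisons with control share the same 5 control arrays, so their calls are not independent of each other.

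**Figure D1:**
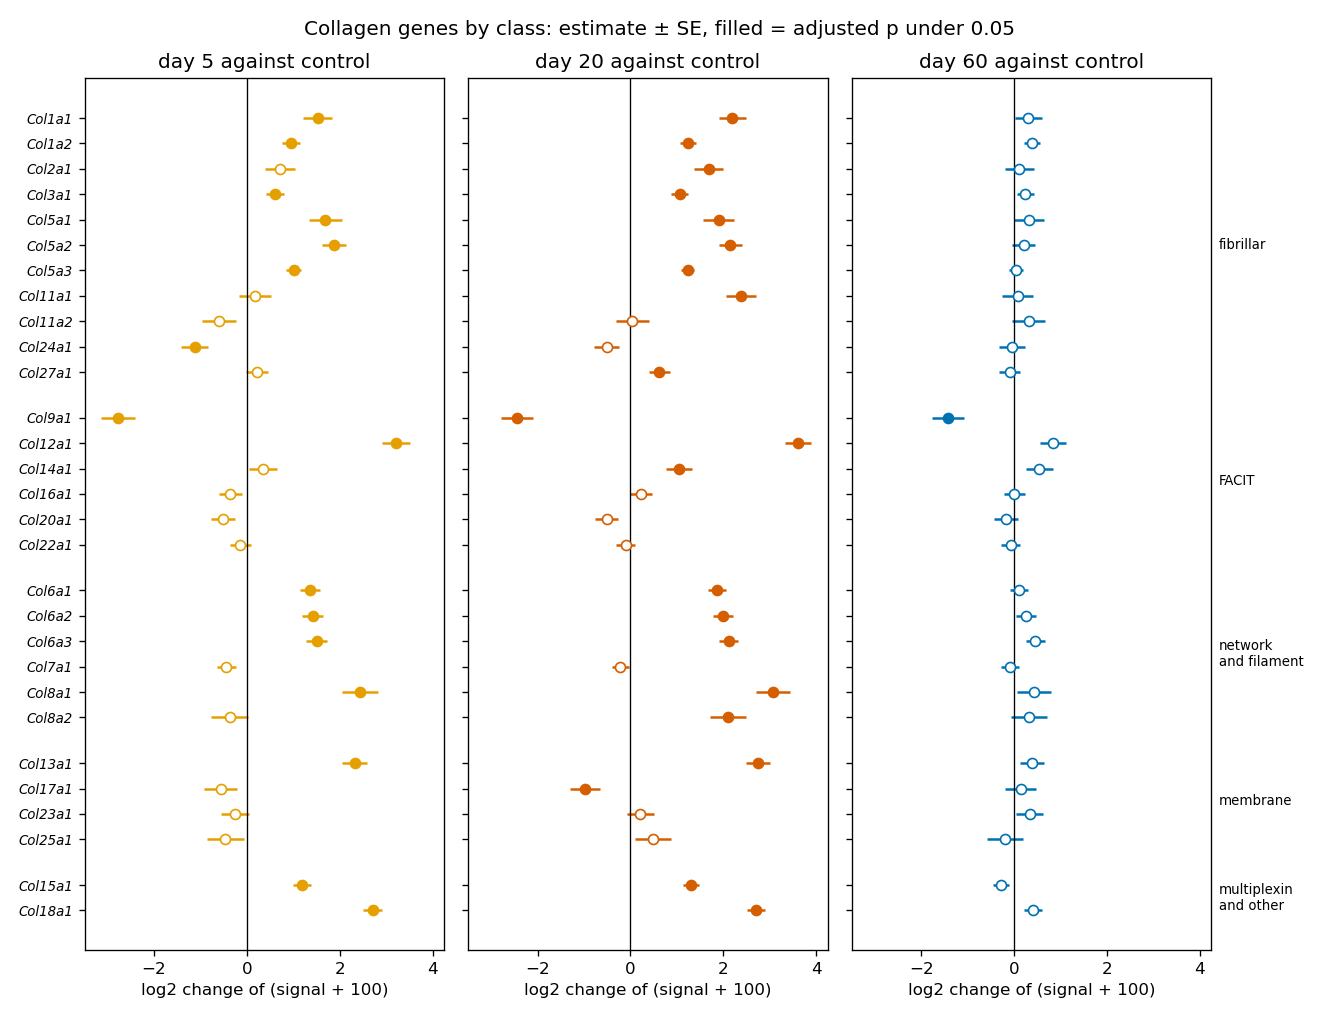
Log2 change of (signal + 100) of the 29 tested collagen genes, by class, on day 5, day 20 and day 60 against control; points are limma estimates, bars 1 SE and filled points those that passed an adjusted p of 0.05: most points of the fibrillar, type VI and type VIII chains lie right of 0 on day 20, and on day 60 the only filled point is Col9a1.

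Of 11 fibrillar chains, 6 were higher and 1 lower on day 5, where 16.8% of all genes were called higher and 17.5% lower, and 9 were higher and 0 lower on day 20, where these shares were 15.6% and 14.5%. The 9 include Col2a1, which was tested only because of its day 20 signal, so its call supports nothing. The median log2 change of the class was 0.71 on day 5 and 1.24 on day 20. No test of the class was made. Col24a1, a minor fibrillar chain, was the single fibrillar chain called lower, and on day 5 it fell by 1.12 ± 0.29 (log2, SE; limma adjusted p = 0.0058). Col11a2 passed the test on neither day.

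Col1a1 and Col1a2 encode the chains of type I collagen, the main fibril of skin. Col1a1 had signals of 8861, 8532, 13153, 9457 and 10920.3 in control arrays A to E and 33146, 28039.5, 25088 and 30911 in day 5 arrays B to E. On day 20 its signals were 34673, 69381, 62820.2, 53308 and 26417, and on day 60 17713, 24234, 6894, 9784 and 10274, in arrays A to E. Every array of day 5 and day 20 lay above every control array, and on day 60 arrays A and B lay above the controls while C lay below them. The rise was 2.88-fold on day 5 (log2 1.53 ± 0.31, SE; limma adjusted p = 0.000817) and then 4.57-fold on day 20 (log2 2.19 ± 0.29; limma adjusted p = 1.36e-05), with group means of 10185 ± 1895 (SD, n = 5) in control and 49319.7 ± 18301 (n = 5) on day 20.

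Col1a2 had signals of 33178, 55789.6, 42215, 42615 and 54354 in control, 77923, 81076, 78908 and 112954 on day 5, 89102, 115150.0, 136393, 98405 and 97076 on day 20 and 60763, 78304, 45903, 45978 and 69617 on day 60. The day 5 and day 20 arrays again lay above all controls, with day 5 E far above the other day 5 arrays. It rose 1.93-fold (limma adjusted p = 0.000745) and 2.36-fold (limma adjusted p = 3.55e-05). Between the genes, the difference Col1a1 minus Col1a2 within each array was -2.15 ± 0.39 (log2, SD, n = 5) in control and -1.19 ± 0.45 (n = 5) on day 20, a shift of 0.95 (exact permutation test, two-sided, adjusted p = 0.0429 over 27 tests of 9 pairs on 3 days). Day 20 E lay among the controls, and with the mean over all probe sets of each gene the shift was 0.53 (exact permutation test, adjusted p = 0.0918).

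Col3a1, the chain of type III collagen, which is abundant in young granulation tissue, had a smaller rise than either type I chain on the probe sets of highest mean. Its signals were 41190.2, 81602, 51511, 55587 and 69731 in control and 76269, 88987, 82662 and 109438 on day 5. They were 106204, 133545, 148231, 119788 and 105309 on day 20 and 73244, 95922, 59933, 53131 and 70337 on day 60. Day 20 lay wholly above control, whereas day 5 B lay below control B. It rose 1.52-fold on day 5 (log2 0.60 ± 0.19; limma adjusted p = 0.0205) and then 2.08-fold on day 20 (limma adjusted p = 0.000209). The day 5 call was lost without control A (log2 0.48, limma adjusted p = 0.0616) and without day 5 E (log2 0.50, adjusted p = 0.0762), and kept without each other array. The difference Col3a1 minus Col1a1 fell by 0.92 on day 5 and by 1.13 on day 20 (exact permutation tests, adjusted p = 0.0429 for each), and on day 5 its arrays lay wholly below the controls. Another Col3a1 probe set rose by 1.06 and 1.96 (log2) on these days, more than the Col1a2 set of highest mean, at 0.95 and 1.24. Other Col1a2 sets rose by 2.19 and 2.59 and by 0.89 and 1.41. With the mean of all probe sets Col3a1 rose by 0.83 and 1.51, and Col1a2 by 1.34 and 1.75.

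Type V collagen starts and limits the width of type I fibrils, and its 3 chains rose on both days. Col5a1 had signals of 4632, 4299, 5368, 7010.4 and 4301 in control, 17764, 16947, 12633 and 19179 on day 5, 11911, 34477, 27476, 18688 and 11761 on day 20 and 12164, 6208, 2626, 6182 and 8086 on day 60. The day 20 arrays spread about the day 5 arrays, with B and C highest, and day 60 A reached the day 20 level. The rise was 3.22-fold (limma adjusted p = 0.00102) and 3.72-fold (limma adjusted p = 0.000247). Col5a2 had signals of 7879, 20724, 15259.8, 14276 and 13940.2 in control, 52795, 47278, 45543 and 59540.0 on day 5, 48194, 74555, 83560.2, 51303 and 57119 on day 20 and 16358, 24565, 11563, 10492 and 21166 on day 60. Its day 5 and day 20 arrays lay above every control and every day 60 array. It rose 3.68-fold (limma adjusted p = 2.31e-05) and 4.44-fold (limma adjusted p = 2.75e-06). Col5a3 rose from 2700.5 to 4143 in control to 5874 to 7505 on day 5 and 7114 to 8906 on day 20, by 2.01-fold and 2.35-fold (limma adjusted p = 6.98e-05 and 4.3e-06). The differences Col5a1 minus Col5a2 and Col5a1 minus Col5a3 passed on no day. With the mean of all probe sets Col5a1 minus Col5a3 shifted by 1.03 on day 5 and 1.17 on day 20 (exact permutation tests, adjusted p = 0.0390 for both). That mean takes in a Col5a3 probe set of mean signal 41.4, too low to be tested. With it the log2 rise of Col5a3 on day 20 was 0.51, against 1.23 on the probe set of highest mean, so these shifts are no result about the chains.

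Col11a1, a fibrillar chain best known from cartilage and a close relative of the type V chains, was higher on day 20 than on day 5. It had signals of 573, 1258, 957, 1037 and 664 in control and 1774, 1324, 459 and 864 on day 5. Its signals were 3023, 9587, 6787, 4564 and 3268 on day 20 and 1090.4, 1219, 833, 605 and 964 on day 60. Control, day 5 and day 60 overlapped, and every day 20 array lay above all of them. Against control the log2 change was 0.18 ± 0.35 on day 5 (limma adjusted p = 0.723) and 2.39 ± 0.33 on day 20, a 5.23-fold rise (limma adjusted p = 1.96e-05). The difference between day 20 and day 5 itself was 2.20 ± 0.35 (limma adjusted p = 0.000998).

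The other fibrillar chains had low or mixed signals. Col2a1, the main cartilage fibril chain, had signals of 51.8 to 242 in control, 81.4 to 385 on day 5 and 478 to 778 on day 20. Its log2 change on day 20 was 1.69 (limma adjusted p = 0.000427), given as a description, since the gene was tested only because of its day 20 signal, while its day 5 change was 0.71 on the log2 scale (adjusted p = 0.104) and 1.05 without day 5 C (adjusted p = 0.0180). Col27a1 rose 1.54-fold on day 20 with overlapping arrays (limma adjusted p = 0.0435). This call was lost without control A, B, D or E, without day 5 D or without day 20 B, C or D, with limma adjusted p of 0.0507 to 0.130. Its fall from day 20 to day 60 was lost without day 20 B, C or D or day 60 A or D, with adjusted p of 0.0528 to 0.0893. Markers of cartilage and bone had a summed signal, over 6 genes, of 1861 to 2032 in control, 1217 to 1418 on day 5, 1260.2 to 2343 on day 20 and 1521 to 3064 on day 60, and 3 of the 6 had a control mean below 300. The part of these cells in the results was not tested.

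**Figure D2:**
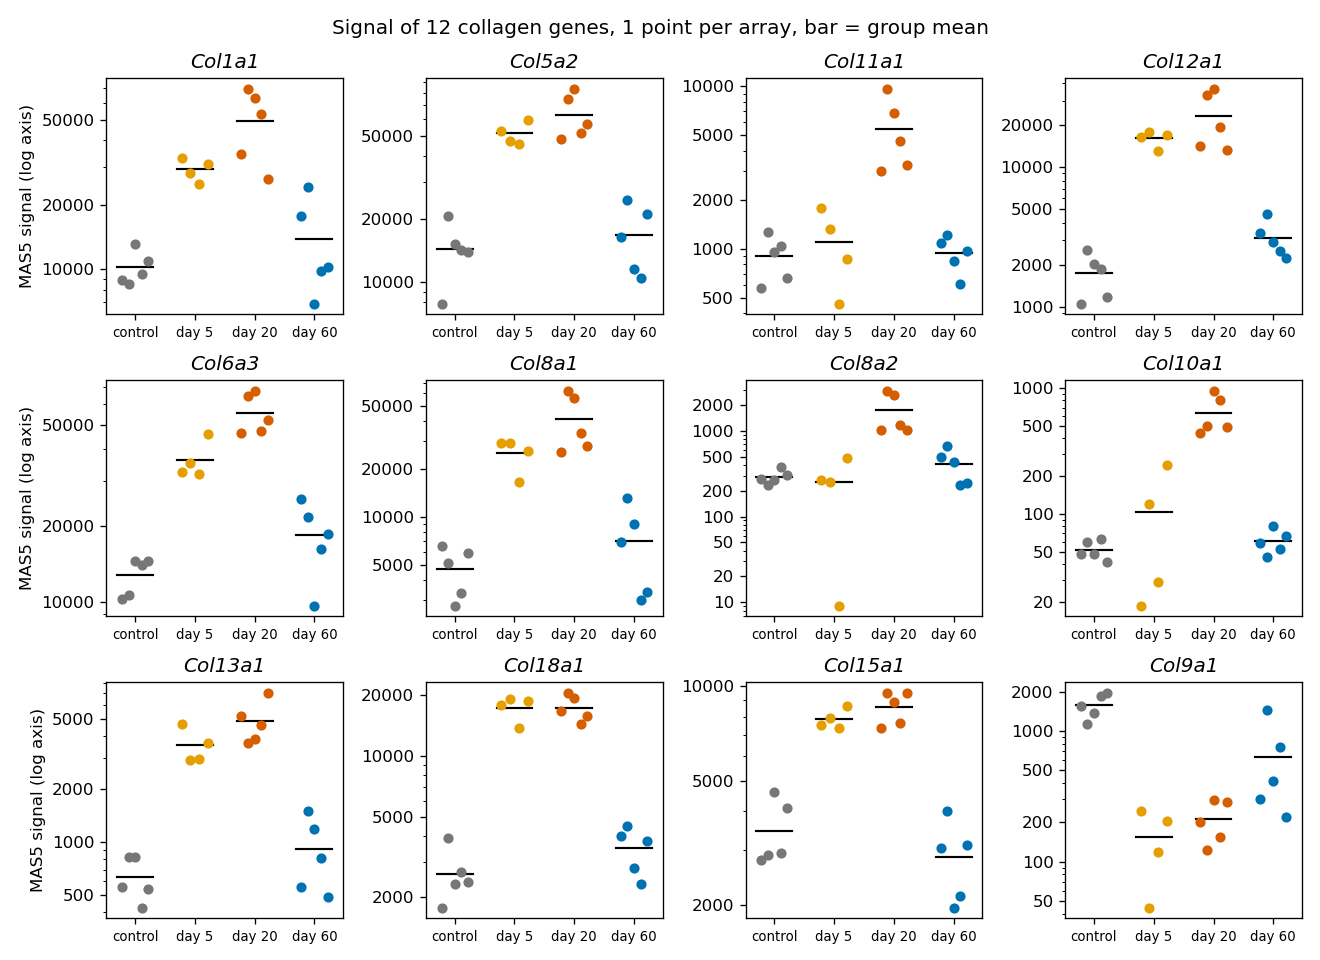
MAS5 signal (log axis) of 12 collagen genes in each array of control, day 5, day 20 and day 60, with a bar at the group mean. Col11a1, Col8a2 and Col10a1 are high in the 5 day 20 arrays alone, Col1a1, Col5a2, Col12a1, Col6a3, Col8a1, Col13a1, Col18a1 and Col15a1 are high on day 5 and day 20, and Col9a1 is low on both days.

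Of 6 tested chains of networks and filaments, among them the type VI and type VIII genes, 4 were higher on day 5 and 5 on day 20. Of all genes tested, 16.8% and 15.6% were called higher on these days. The median log2 changes of the class were 1.39 and 2.04. The sixth, Col7a1, which forms the anchoring fibrils under the epidermis, had 1134 to 1888 in control, 868 to 1116 on day 5 and 790.5 to 1741 on day 20 and passed on no day. All its day 5 arrays lay below the controls (log2 -0.44, limma adjusted p = 0.0949), and it passed with array weights (adjusted p = 0.0233) and in a fit of the 2 groups (0.0492).

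The 3 chains of type VI collagen, which assemble in 1 molecule, rose on both days. Col6a3 had signals of 10319, 10661, 14457, 13959 and 14553 in control, 32428, 35121, 31989.9 and 45918 on day 5, 46485, 64605, 67692, 47281 and 52218 on day 20 and 25471, 21599, 9681, 16197 and 18507 on day 60. Every day 20 array lay above every day 5 array and these above every control. The rises were 2.83-fold and 4.32-fold (limma adjusted p = 3.5e-05 and 4.03e-07), and the difference between day 20 and day 5 did not pass (log2 0.61, adjusted p = 0.113; 0.0354 without day 60 C). Col6a1 rose 2.56-fold and 3.64-fold (limma adjusted p = 6.6e-05 and 1.12e-06), from 7721 ± 959.5 in control to 28764 ± 6789.6 on day 20 (SD, n = 5 each). Col6a2 rose 2.67-fold and 3.96-fold (limma adjusted p = 0.000113 and 1.67e-06), from 16796 ± 2668 to 66279.5 ± 7052. Within arrays Col6a1 minus Col6a2 shifted by -0.06, -0.12 and -0.14 on the 3 days and did not pass. Col6a1 minus Col6a3 was -0.71 ± 0.10 in control and -1.06 ± 0.11 on day 60 with no overlap (shift -0.34, exact permutation test, adjusted p = 0.0429). On day 60 without array C the Col6a3 log2 change was 0.67 (limma adjusted p = 0.0445), and with it 0.46 (adjusted p = 0.281).

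Col8a1 and Col8a2 encode the chains of type VIII collagen, a short network collagen made by endothelial and smooth muscle cells, and differed in time. Col8a1 had signals of 6555, 5099, 2762, 3311 and 5906 in control, 29077, 29299, 16487 and 26018 on day 5, 25709, 61939, 56338, 33833 and 27862 on day 20 and 6928, 13074, 9053, 2988 and 3363 on day 60. Day 5 and day 20 lay above all controls, and day 20 B and C were the highest arrays. It rose 5.38-fold (log2 2.43 ± 0.39; limma adjusted p = 9.29e-05) and 8.42-fold (log2 3.07 ± 0.37; limma adjusted p = 3.93e-06). Col8a2 had signals of 276, 233, 269.6, 379 and 307 in control, 268, 255, 9.14 and 479 on day 5, 1021, 2902, 2624, 1163 and 1012 on day 20 and 497, 665, 431, 233 and 246 on day 60. The day 5 arrays lay about the controls, apart from day 5 D, which was far lower, and the day 20 arrays lay above every other array. The log2 change was -0.37 ± 0.40 on day 5 (limma adjusted p = 0.508), and on day 20 the gene was 4.28-fold higher (limma adjusted p = 0.000359). Day 20 exceeded day 5 by 2.47 ± 0.40 (limma adjusted p = 0.00138).

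The difference Col8a1 minus Col8a2 was 3.56 ± 0.61 (log2, SD, n = 5) in control, 6.36 ± 0.72 (n = 4) on day 5 and 4.53 ± 0.17 (n = 5) on day 20. It was larger than in control by 2.80 and 0.98 without overlap (exact permutation tests, adjusted p = 0.0429 for both). The day 20 call was lost when 1 in place of 100 was added to the signal, so it depends on that constant. The day 5 mean takes in day 5 D, where the Col8a2 signal was 9.14. With the mean of all probe sets the day 20 shift was 0.63 (exact permutation test, adjusted p = 0.0390). On day 60 the shift was 0.11 and did not pass. For these exact tests the smallest possible p is 0.0159 for 5 arrays against 4 and 0.00794 for 5 against 5, and leaving out 1 array of control or day 5, or day 20 A, C or D, left 0 of the 10 pair tests called.

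**Figure D3:**
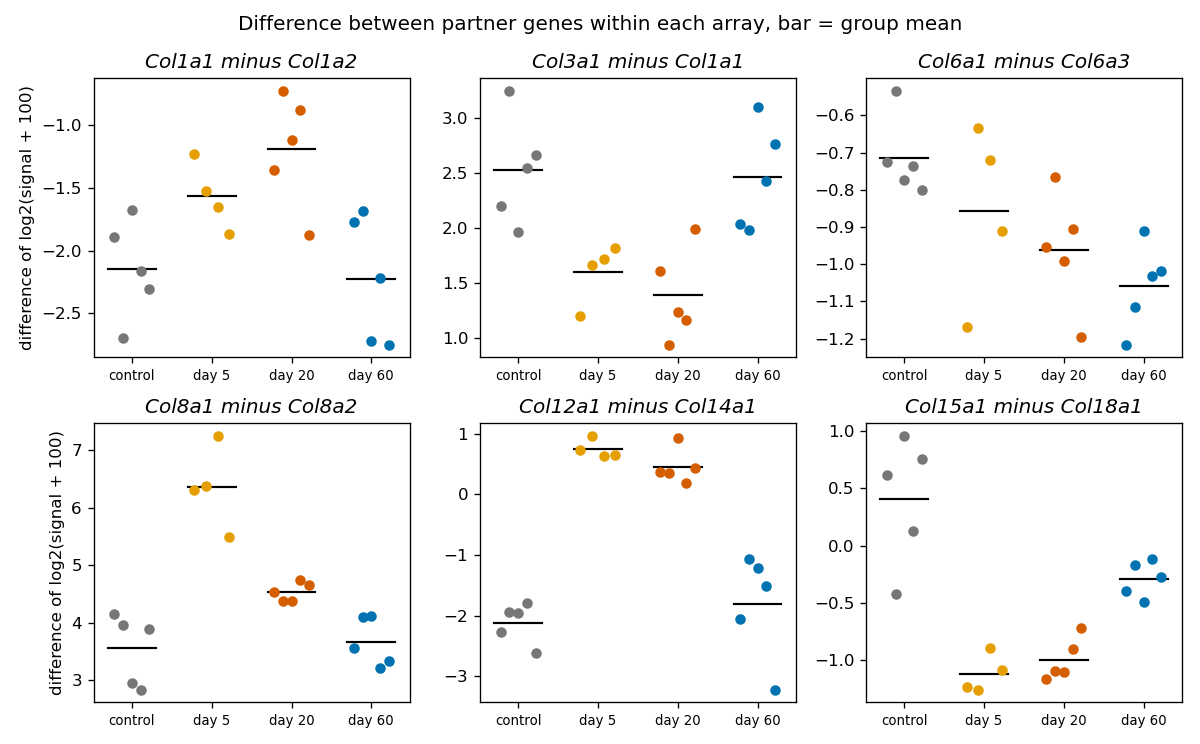
Difference of log2(signal + 100) between 6 pairs of collagen genes in each array of the 4 groups, with a bar at the group mean. Col8a1 minus Col8a2 is highest on day 5, and Col12a1 minus Col14a1 is higher in every day 5 and day 20 array than in any control or day 60 array; the sign of a value has no meaning, since probe sets differ in brightness.

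Col10a1, the network chain of hypertrophic cartilage, was below the minimum mean and so was not tested with the others. Its signals were 48.4, 59.4, 47.7, 63.5 and 41.7 in control and 18.7, 119.8, 28.9 and 244 on day 5. They were 436, 503, 946, 807 and 492 on day 20 and 59.0, 45.4, 80.3, 52.9 and 66.7 on day 60. The day 20 arrays lay above every other array. In a fit with no minimum, over 18194 genes, its log2 change on day 20 was 2.23 ± 0.24 (limma adjusted p = 2.25e-06), and day 20 exceeded day 5 by 1.95 (limma adjusted p = 0.00027). Of the 7 genes under the minimum, Col10a1 and Col9a3 were the 2 called against control in that fit.

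Only 2 tested genes, Col11a1 and Col8a2, were called between day 5 and day 20, both higher, where 3.05% of all genes tested were called higher and 2.25% lower. Promoter sequences from RefSeq (build GRCm38.p6) were found for 28 of the 36 collagen genes, with 31 starts. The 150 bases before the start are shown for these late genes and Col10a1, and for Col8a1 and Col18a1, which were already high on day 5. Capitals mark the CCAAT box, the GC box (letters GGGCGG) and the TATA motif (letters TATAAA), each sought on both strands, so that a match on the other strand is read as its reverse complement, and neighbouring GC boxes can overlap.
Col11a1 (chr3:114030390-114030539, plus strand): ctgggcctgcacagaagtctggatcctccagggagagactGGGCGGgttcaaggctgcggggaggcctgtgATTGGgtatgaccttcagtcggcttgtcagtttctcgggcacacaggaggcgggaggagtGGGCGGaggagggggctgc
Col8a2 (chr4:126286644-126286793, plus strand): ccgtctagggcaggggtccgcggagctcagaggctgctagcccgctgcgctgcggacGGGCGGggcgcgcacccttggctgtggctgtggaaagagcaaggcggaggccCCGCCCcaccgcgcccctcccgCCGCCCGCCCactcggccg
Col10a1 (chr10:34389831-34389980, plus strand): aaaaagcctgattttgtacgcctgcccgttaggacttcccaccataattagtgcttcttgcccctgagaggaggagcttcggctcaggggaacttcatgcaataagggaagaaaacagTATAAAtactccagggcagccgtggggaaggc
Col8a1 (chr16:57754738-57754887, minus strand): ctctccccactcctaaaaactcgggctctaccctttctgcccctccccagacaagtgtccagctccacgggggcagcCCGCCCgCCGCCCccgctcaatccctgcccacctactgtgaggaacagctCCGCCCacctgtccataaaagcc
Col18a1 (chr10:77166531-77166680, minus strand): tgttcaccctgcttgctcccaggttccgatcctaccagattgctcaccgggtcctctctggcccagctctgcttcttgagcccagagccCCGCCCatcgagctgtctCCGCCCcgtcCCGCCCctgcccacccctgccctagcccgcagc
The Col10a1 stretch holds TATAAA beginning 32 bases before the start, and the other 4 stretches hold GGGCGG on one strand or the other. Col18a1 has a further start in the table, whose 150 bases (chr10:77113706-77113855, minus strand) hold none of the 3 motifs. In the whole windows, of 250 bases before and 50 after the start, GGGCGG was found in 18 of the 31 collagen windows (58.1%) and in 35.7% of all 32851 promoters. CCAAT was found in 10 of 31 (32.3%) against 37.4%, and TATAAA in 5 of 31 (16.1%) against 13.6%. A match of letters is no more than a description.

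FACIT chains bind to the surface of fibrils. Of 6 tested, 1 was higher and 1 lower on day 5 (16.7% each way, near the 16.8% and 17.5% of all genes). On day 20, 2 were higher and 1 lower, where 15.6% of all genes were called higher and 14.5% lower. The medians were -0.25 on day 5 and 0.06 on day 20. Col12a1, which links fibrils in tissue under strain, had the largest log2 rise of the 29 genes on both days when each was read from its probe set of highest mean. With the mean of all probe sets, which takes in Col12a1 probe sets of mean signal 89.8 and 69.2, it ranked 11 on day 5 and 15 on day 20. Its signals were 1050.4, 2533, 2027, 1871 and 1166 in control, 16490.0, 17892, 12960.5 and 17109.7 on day 5, 14173, 32926, 36224, 19269.8 and 13218 on day 20 and 3371, 4594, 2913, 2505 and 2237 on day 60. All day 5 and day 20 arrays lay far above the controls, and day 60 overlapped the upper controls. It rose 9.23-fold (log2 3.21 ± 0.30; limma adjusted p = 2.67e-07) and 12.2-fold (log2 3.61 ± 0.28; limma adjusted p = 3.39e-08), and was 0.84 from control at day 60 on the log2 scale (adjusted p = 0.136).

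Col14a1, the FACIT chain nearest to Col12a1, had 5434 to 10030.3 in control, 8321 to 10854 on day 5 and 9748 to 25752 on day 20. The log2 estimate was 0.35 on day 5 (limma adjusted p = 0.396) and 1.05 on day 20, with overlapping arrays (adjusted p = 0.00965). Col12a1 minus Col14a1 went from -2.11 ± 0.33 in control to 0.74 ± 0.15 on day 5 and 0.45 ± 0.27 on day 20, shifts of 2.85 and 2.57 with no overlap (exact permutation tests, adjusted p = 0.0429 for both). With the mean of all probe sets of each gene, those of low signal included, the shifts were 1.10 and 0.81 (exact permutation tests, adjusted p = 0.0390 for both). The fall of Col14a1 from day 20 to day 60 did not pass (log2 -0.50, limma adjusted p = 0.228) and passed without day 60 E (log2 -0.75, adjusted p = 0.0463). Col16a1, Col20a1 and Col22a1 passed on no day against control.

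Col9a1, a chain of the type IX collagen that decorates cartilage fibrils, fell most among the tested collagen genes. It had signals of 1543, 1141, 1379.5, 1858 and 1949 in control, 246, 44.5, 118 and 204 on day 5, 202, 123, 297, 155 and 284 on day 20 and 303, 1437, 416, 759 and 220.2 on day 60. Day 5 and day 20 lay wholly below control, and on day 60 array B alone was within the control range. It was 6.86-fold lower on day 5 (log2 -2.78 ± 0.36; limma adjusted p = 1.2e-05) and then 5.41-fold lower on day 20 (log2 -2.44 ± 0.34; limma adjusted p = 2.71e-05). On day 60 it was the single call, 2.68-fold lower (limma adjusted p = 0.0486), which was lost without any 1 array other than control B, day 60 B or day 60 D, with adjusted p of 0.0518 to 0.136, and in the fit with no minimum (0.0605). Its rise from day 20 to day 60, log2 1.01 (limma adjusted p = 0.0395), was lost without day 20 A, B or D or day 60 B or D, with adjusted p of 0.0649 to 0.106. Col9a3, another type IX chain, was below the minimum, with signals of 606, 523, 521, 516 and 373 in control, 101, 70.0, 68.0 and 144 on day 5, 62.0, 93.7, 93.4, 151 and 31.0 on day 20 and 112, 379.8, 139, 185 and 86.5 on day 60. In the fit with no minimum it fell by 1.64 on day 5, by 1.73 on day 20 and by 1.19 on day 60 (log2; limma adjusted p = 5.64e-05, 1.82e-05 and 0.0229).

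Membrane chains had 1 gene that rose. Col13a1, a transmembrane collagen of cell contacts, had signals of 561, 825, 822, 426 and 543 in control, 4662, 2941, 2978 and 3645 on day 5, 5219, 3632, 3863, 4609 and 7004 on day 20 and 559, 1496, 1191, 816 and 488 on day 60. The day 5 and day 20 arrays lay above every control and every day 60 array. It rose 5.01-fold (limma adjusted p = 3.15e-06) and 6.73-fold (limma adjusted p = 2.27e-07). Col17a1, the hemidesmosome collagen of basal keratinocytes, had 605, 2164, 798, 853 and 682 in control and 673, 148, 929, 445 and 237 on day 20. It was 1.97-fold lower on day 20 with overlapping arrays (limma adjusted p = 0.032), a call lost without control B (adjusted p = 0.0884), day 20 B (0.106) or day 20 E (0.0822). Its rise from day 20 to day 60 (log2 1.13, limma adjusted p = 0.0191) was lost without day 20 B (0.0640) or E (0.0536). Of 5 keratinocyte markers, 2 were lower on day 20 than in control, where 14.5% of all genes were called lower. Against day 20, 3 of them were higher on day 60, where 11% of all genes were called higher. Their summed signal was 69236 to 114960.0 in control, 12496 to 93261 on day 20 and 69069 to 157366 on day 60. The part of these markers in the result was not tested. Col23a1 and Col25a1 passed on no day against control.

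Both tested multiplexins, the proteoglycan collagens of basement membrane zones, rose on both days. Col18a1, whose end fragment is endostatin, had signals of 1781, 3915, 2323, 2676 and 2385 in control, 17823, 19015, 13703 and 18519.8 on day 5, 16570.4, 20350.1, 19182, 14264 and 15705 on day 20 and 4038, 4506, 2798, 2332 and 3804 on day 60. Day 5 and day 20 overlapped each other and lay above all controls and all day 60 arrays. It rose 6.55-fold and 6.52-fold (log2 2.71 ± 0.20 and 2.71 ± 0.19; limma adjusted p = 2.64e-08 and 1.07e-08), with the lowest adjusted p of the 29 genes on each day. Col15a1 had signals of 2782, 2903, 4599, 2931 and 4098 in control, 7519, 7908, 7330.3 and 8671 on day 5, 7345, 9498, 8873, 7605 and 9495 on day 20 and 3044, 3997, 1967, 2148 and 3123 on day 60. Its day 5 and day 20 arrays also lay above all others. It rose 2.28-fold and 2.47-fold (limma adjusted p = 8.17e-05 and 1.69e-05). Col15a1 minus Col18a1 was 0.41 ± 0.55 in control and -1.12 ± 0.17 on day 5, and fell by 1.52 on day 5 and by 1.40 on day 20 with no overlap (exact permutation tests, adjusted p = 0.0429 for both). All 4 endothelial markers rose on both days, from a summed signal over 4 genes of 3566 to 5813 in control to 27367 to 30849.8 on day 5 and 17997 to 30850.2 on day 20. Of 4 pericyte and smooth muscle markers, 2 rose on day 5 and 3 rose and 1 fell on day 20, and their sums were 20932 to 37517 in control, 30500.4 to 61855 on day 5 and 110051 to 148800.0 on day 20. Of all genes tested, 16.8% were called higher and 17.5% lower on day 5, and 15.6% and 14.5% on day 20. The part of these endothelial, pericyte and smooth muscle markers in the collagen results was not tested.

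In some arrays most of the collagen genes deviated from the group mean in the same direction. Over the 14 genes that rose on both days, day 20 B lay 0.31 and day 20 C 0.30 above the group mean (log2), each for 13 of the 14 genes, and day 20 A lay 0.28 below it. On day 60, B lay 0.50 and A 0.27 above, and C 0.41 and D 0.29 below. Control A lay 0.30 below its group, with 1 of 14 genes above the mean. Other arrays had no such joint deviation: in control B and day 5 B 7 of the 14 genes lay above the mean, and in control D, day 5 C and day 60 E 8 did. Among the day 20 arrays, summed signals of 5 activated fibroblast markers (Acta2, Postn, Tnc, Cthrc1 and Lrrc15) were highest in B and C, at 231625 and 244483, against 162468 to 180014 in the others. On day 60 the sums were 60350 in A, 148989 in B, 113719 in C, 48301 in D and 57967 in E. There C had a high sum but lay below its group over the 14 collagen genes, so the sums did not follow those deviations in every array. In the groups they were 58596 to 119674 in control, 154912 to 199040.0 on day 5, 162468 to 244483 on day 20 and 48301 to 148989 on day 60. The 5 general fibroblast markers other than Col1a1 (Pdgfra, Dpt, Pi16, Thy1 and Lum) summed to 66103 to 111738 in control, 33930 to 41623 on day 5, 48295 to 94444 on day 20 and 56067 to 157622 on day 60. Their sums on day 5 lay below all those of control, while of the 6 general markers, Col1a1 included, 2 were called higher and 3 lower on day 5, and 2 higher and 1 lower on day 20. Of 3 macrophage markers, 2 were higher on day 5 and 1 on day 20. Of 2 adipocyte markers 1 was lower on each of these days, and of 4 skeletal muscle markers 1 was lower on day 5 and 0 on day 20. Of 2 tested tendon markers 1 was higher on day 20, and of 2 Schwann cell markers 1 was lower on day 5. Beside these marker counts, 16.8% of all genes were called higher and 17.5% lower on day 5, and 15.6% and 14.5% on day 20. A single call in so short a list is therefore no result. The part of these lists in the collagen results was not tested.

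Other probe sets of the same genes bear on the size of these changes. Several tested probe sets were on the array for 14 genes, and they had the same direction for 13 genes on day 5, 14 on day 20 and 9 on day 60, with none called both ways. A further probe set of Col1a2 and of Col3a1 gave larger rises on day 20, of 2.59 and 1.96 against 1.24 and 1.06. The third tested Col1a2 probe set did not pass on day 5 (0.89, limma adjusted p = 0.112) and passed on day 20 (1.41, adjusted p = 0.012). For Col12a1 the further probe set gave 1.20 against 3.61, and both passed (limma adjusted p = 0.00496 for the further one). The other Col9a1 probe set had log2 changes of -0.72 and -0.75 on day 5 and day 20, which did not pass (limma adjusted p = 0.0944 and 0.0723). The other Col14a1 probe set did not pass on day 20 (0.56, limma adjusted p = 0.101), and the other Col25a1 probe set fell on day 5 (-1.02, adjusted p = 0.00228). With the mean over all probe sets of a gene, the log2 changes on day 20 were 1.32 for Col12a1, 0.51 for Col5a3, 0.50 for Col14a1 and -1.59 for Col9a1. These means take in probe sets too low to be tested, which make a change smaller. Their mean signals were 89.8 and 69.2 for Col12a1, 41.4 for Col5a3 and 16.2 for Col14a1.

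**Figure D4:**
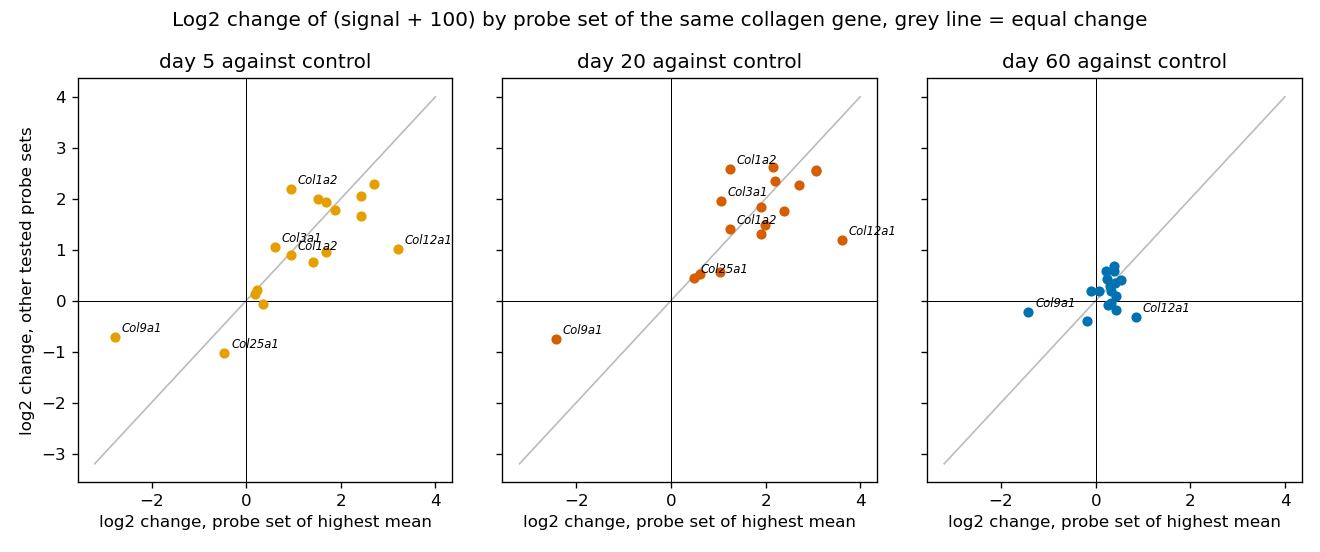
Log2 change of (signal + 100) on the probe set of highest mean (x axis) against the other tested probe sets of the same collagen gene (y axis), for day 5, day 20 and day 60 against control; the grey line marks equal change. On day 20 all points lie in the quadrants of equal sign, with Col1a2 and Col3a1 above the line and Col12a1 below it.

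For the lists of collagen-related genes that follow, the shares of all genes to set beside them are 16.8% called higher and 17.5% lower on day 5, and 15.6% and 14.5% on day 20. Enzymes and chaperones that hydroxylate and fold procollagen in the endoplasmic reticulum were higher for 12 of 19 on day 5 and 13 of 19 on day 20 and lower for 0, with medians of 0.88 and 0.69, and on day 60 0 were called. Serpinh1, the collagen chaperone, rose 2.67-fold on day 5 (limma adjusted p = 2.78e-05), and Crtap, of the prolyl 3-hydroxylation complex, rose 2.56-fold (adjusted p = 2.89e-05). On day 20 the largest changes were those of P3h3 at 2.92-fold (limma adjusted p = 3.82e-06) and Crtap at 2.52-fold (adjusted p = 1.96e-05).

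Of 9 tested genes that trim procollagen or cross-link fibrils, 5 were higher and 2 lower on day 5 and 3 higher and 2 lower on day 20. Lox, the cross-linking lysyl oxidase, went from 3749 ± 985 (SD, n = 5) to 17173 ± 4368 (n = 4) on day 5, a rise of 4.52-fold (limma adjusted p = 1.27e-05). Its relative Loxl3 rose 4.08-fold (limma adjusted p = 3.66e-06). On day 20 Pcolce, which speeds removal of the C-terminal propeptide, rose 4.79-fold (limma adjusted p = 4.99e-07) and Lox 3.70-fold (adjusted p = 3.19e-05). Against these, Pcolce2 was 2.55-fold and 2.80-fold lower and Adamts3 1.54-fold and 2.02-fold lower on day 5 and day 20 (limma adjusted p of 0.00374, 0.00126, 0.024 and 0.000596).

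Among 8 tested genes of collagen breakdown, 1 was higher on day 5, a count near the 16.8% share of all genes, and 4 on day 20. Mmp13, the main interstitial collagenase of the mouse, went from 102 ± 70.4 (SD, n = 5) in control to 1834 ± 964 (n = 4) on day 5 and 15518 ± 11769 (n = 5) on day 20, and to 618 ± 722 on day 60. Its control signal was near the added 100, so the size of the change depends on that constant. The log2 rise was 3.09 ± 0.61 and 6.07 ± 0.57 (limma adjusted p = 0.000614 and 2.66e-07). Mrc2, an uptake receptor for collagen fragments, rose 2.10-fold (adjusted p = 0.0198) and Ctsk, a lysosomal collagenase, 2.07-fold on day 20 (limma adjusted p = 0.00423).

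Of 7 tested collagen receptors 3 were higher and 1 lower on both days. Itga1, a collagen-binding integrin chain, went from 666 ± 107 in control to 8470.4 ± 2336 on day 5 and 8515 ± 1376 on day 20, rises of 3.46 and 3.49 on the log2 scale (limma adjusted p = 6.61e-08 and 2.66e-08). Lair1, an inhibitory receptor of leukocytes, rose 4.54-fold on day 5 (limma adjusted p = 0.000337), Itgb1 rose 3.51-fold on day 20 (adjusted p = 7.44e-08), and Ddr1 was lower by 1.81-fold and 1.75-fold (adjusted p = 0.0276 and 0.032). Of 5 proteoglycans that coat fibrils, 1 was higher and 2 lower on day 5, and 2 higher and 1 lower on day 20. Bgn rose 4.44-fold on day 5 and 6.85-fold on day 20 (limma adjusted p = 7.67e-06 and 2.14e-07), Fmod rose 12.5-fold on day 20 (adjusted p = 1.36e-05), Lum was 2.77-fold lower on day 5 (adjusted p = 0.000144), and Dcn was 2.68-fold lower on day 5 and 1.53-fold on day 20 (adjusted p = 2.45e-05 and 0.0181).

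The ratio of the 3′ to the 5′ probe set of Actb, which rises as RNA degrades, was 7.10 ± 1.89 (SD, n = 5) in control, 4.82 ± 1.96 (n = 4) on day 5, 4.48 ± 1.84 (n = 5) on day 20 and 8.82 ± 4.24 (n = 5) on day 60, highest in day 60 A at 14.0. The median signal of an array was 406 to 569. Of the Vegfa probe sets, 1 had means of 196 ± 156 (control), 6739 ± 2584 (day 5), 9256 ± 2549 (day 20) and 463 ± 354 (day 60), and another had, in the same order, 2022 ± 479, 719.9 ± 66.1, 1029 ± 146 and 1750.1 ± 499. The array titled day 5 A had 11111 on the first and 788 on the second. Control arrays had 66.5 to 467 and 1344 to 2629, and day 5 arrays 3927 to 9410 and 640 to 797. The part of RNA quality in the collagen results was not tested.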

How the data were processed

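The deposited table holds MAS5 signal intensities, which the authors made with GCOS 1.3 and the MAS 5.0 algorithm at a scaling factor of 1500, per the submitters' processing notes. No further normalization was applied. Of 45101 probe sets, 34958 carried 1 gene symbol in GEO's platform annotation, giving 18194 genes; 932 probe sets with several symbols and 9211 with none were not used. The collagen genes, the pathway and marker lists and the tests were chosen with earlier results of these data known.

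Genes with a mean signal of at least 300 over the 19 assigned arrays were tested on log2(signal + 100) in 1 fit of 4 groups with limma 3.58.1 (eBayes with a trend; R 4.3.3, statmod 1.5.0), with Benjamini-Hochberg adjusted p over 13595 genes. The fit was tested on simulated data. Differences between partner chains were tested with two-sided exact permutation tests (scipy 1.17.1, Python 3.11.15), adjusted over 27 tests. Values of every array are given for genes that passed with no overlap and a log2 change of at least 1, up to 4 fibrillar genes and 3 of each other class by largest change, and for Col1a1, Col1a2 and Col3a1; of each pathway list, the 2 passing genes of largest change on each day are named. Col10a1, Col9a3, Col17a1 and other genes outside that rule were added after their values were seen.

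Alternatives were the pseudocount (1, 500), the minimum (none, 1000), centring on the percentile 75, quantile normalization, array weights, no trend, fits of 2 groups, the mean of all probe sets, the title letter as block, the use of the array titled day 5 A, and each array left out. Each probe set of a gene was an alternative chosen after seeing the data. Deviations from the group mean had a median correlation of 0.024 over 27 pairs of arrays with the same letter (highest 0.35, 11 over 0.1). The 108 pairs of other letters had -0.030 (highest 0.40, 32 over 0.1). These values cannot exclude pairing by letter. The labels do not say that the letters pair arrays, so they were not taken as pairs in the main fit. Protein sequences were not analysed here.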

Additional observations from a re-analysis of the deposited data

Results flagged for a closer look

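In 116 sets of arrays (each tested collagen gene in each group), 7 held an array far from the others of its group, and chance alone gives about 1 in 20. On day 5 these were array E for Col1a2, with a signal of 112954 above the rest, array C for Col2a1, with 81.4 below the rest, array C for Col7a1, with 868 below the rest, and array B for Col20a1, with 159 below the rest. On day 60 it was array C for Col11a2, with 764 above the rest. In control it was array B for Col17a1, with 2164, and array D for Col23a1, with 590.0, both above the rest.

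The effects of day 20 and day 5, each against control, differed in the limma fit for Col11a1 by 2.20 and for Col8a2 by 2.47 on the log2 scale. The effects of day 60 and day 20 differed for 20 of the 29 genes, and those of day 60 and day 5 for 15. Of all genes, 11.2% were called lower and 11% higher on day 60 than on day 20. Against day 5 the share was 12.2% in each direction. The array titled day 5 A, which entered no comparison, lay above every control array for 15 of the 29 genes and below every control array for 7, and it lay within the range of the day 5 arrays for 22.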

How the results depend on the processing

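The count of genes called on day 60 against control, 1 in the main setting, was 0 with a pseudocount of 1, with a minimum of 1000, without a trend, in a fit of 2 groups, with the mean of all probe sets, with the letter as replicate block, with the array titled day 5 A as control and with each probe set by itself, and 0 to 1 with 1 array left out. The count for day 20 against day 5, 2 in the main setting, was 1 with a minimum of 1000, 5 with array weights and 4 in a fit of 2 groups. With the replicate block 16 genes were called on day 5, 20 on day 20 and 19 on day 60 against day 20; it ended the calls of Col17a1 on day 20 (limma adjusted p = 0.0520) and of Col9a1 on day 60 against control (0.0732) and against day 20 (0.0579). Of the 27 partner tests 10 were called, each at an adjusted p of 0.0429 (exact permutation tests), and 0 to 10 with 1 array left out. The 27 tests were adjusted together, so leaving out an array of 1 day could also end calls on other days. With 1 array left out, day 5 had 15 to 17 calls, day 20 had 19 to 21 and day 60 against day 20 had 17 to 21. With the array titled day 5 A as control, Col3a1 (log2 0.51, limma adjusted p = 0.0686) and Col24a1 (log2 -0.87, adjusted p = 0.0705) were no longer called on day 5. That array had a Vegfa signal of 11111, against 66.5 to 467 in the controls, so this setting counts as control an array with high Vegfa. The count for day 60 against day 5, 15 in the main setting, was put through the same alternatives after the data had been seen, and was 13 to 16. No called value changed sign under the alternatives run. Low signals limit Col2a1, Col8a2 and Col10a1. With a pseudocount of 500, the log2 change was -1.66 on day 5 and -1.53 on day 20 for Col9a1, -0.58 on day 5 for Col24a1, -0.60 on day 20 for Col17a1, 0.83 on day 20 for Col2a1 and 1.52 between day 5 and day 20 for Col8a2. With the mean of all probe sets, those of low signal included, it was 1.17 on day 5 for Col12a1, 0.50 for Col5a3 and -1.75 for Col9a1.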
